A study of Mus musculus with 24 samples.

Results

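The acute phase genes described here are Saa1, Saa2, Saa3, Hp, Lcn2, Orm1, Orm2, Serpina3n and Itih4, a list of 9 genes taken by symbol and matched to Ensembl identifiers, out of 49585 genes counted. Each encodes a secreted plasma protein or secreted inhibitor whose transcript is known to rise in inflammation, and fat is a described source of several of them. RNA of whole white fat from male C57BL/6J mice was sequenced in 24 libraries that form 6 groups. One experiment fed mice for 20 weeks and took their subcutaneous adipose tissue (SAT), either after a high-fat diet in which 60% of the energy was fat (n = 4) or after a diet low in fat, with 10% (n = 4). For the genotype experiment SAT was taken from Azin2-/- mice (n = 3) and wild-type littermates (n = 5), and epigonadal adipose tissue (GAT) from Azin2-/- mice (n = 4) and wild-type littermates (n = 4), all of which had eaten the 60% diet for 8 weeks. The genotype groups thus share the high-fat diet and hold no low-fat control, and no source used here states the ages of the animals.

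The acute phase response is the change in plasma protein output that follows infection or injury. Interleukin 6 type cytokines, interleukin 1 and tumour necrosis factor reach the liver and act through STAT3, C/EBP and NF-kappaB factors on the genes of these proteins. Adipocytes and macrophages of fat make part of the same set, and in mice Saa3 is the serum amyloid A form best known outside the liver, while Saa1 and Saa2 are mainly hepatic. Haptoglobin and Lcn2 have been described as adipocyte products that increase in obese mice.

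The libraries held 31.96 to 46.62 megareads of counts. Azin2, the gene targeted in the knockout, was read at 8.32 to 11.8 normalised CPM (counts scaled to library size) in Azin2-/- SAT, against 16.2 to 25.2 in wild-type SAT, and at 12.5 to 19 in Azin2-/- GAT, against 22.4 to 25.4 in wild-type GAT. It was at 12.1 to 14.3 in high-fat SAT and 15.9 to 23.1 in low-fat SAT of the diet experiment, so its range in Azin2-/- GAT was also met in libraries that carry no knockout label. Some libraries carried transcripts of other tissues. Summed over 12 epididymis genes, the library labelled low-fat SAT replicate 1 held 45284 normalised CPM and wild-type GAT replicate 3 held 6342, against at most 1.08 in each of the others. The library labelled low-fat SAT replicate 1 also lacked the subcutaneous factor Hoxc10 (0.0415 normalised CPM, against 26.5 to 32.5 in the other low-fat libraries), so its label as SAT is doubtful and results that rest on it are given with and without it. Summed over 16 skeletal muscle genes, Azin2-/- SAT replicate 2 held 93729 and wild-type SAT replicate 3 held 78086 normalised CPM. High-fat SAT replicate 6 held 6931, low-fat SAT replicate 5 held 26017 and low-fat SAT replicate 6 held 1231, against 14.4 to 209 in the other libraries. The labels do not state that libraries come from separate animals beyond the marks in their titles, so the p-values measure the spread between these samples.

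In the GRCm38 annotation the 3 Saa genes lie together on chromosome 7, Saa3 at 46711998 to 46715700, Saa1 at 46740497 to 46742980 (both minus strand) and Saa2 at 46751790 to 46754313 (plus strand). Orm1 (63344560 to 63348163) and Orm2 (63362449 to 63365878) are neighbours on the plus strand of chromosome 4. Hp lies on chromosome 8 at 109575128 to 109579172 (minus), Lcn2 on chromosome 2 at 32384633 to 32388252 (minus), Serpina3n on chromosome 12 at 104406729 to 104414329 (plus) and Itih4 on chromosome 14 at 30886476 to 30902353 (plus). Each is protein-coding, and no other annotated gene overlapped any of them. Of all stretches of 50 bases in their annotated transcripts, 31.5% in Saa1 and 30% in Saa2 occur also in another gene, nearly all in each other, as do 20.4% in Orm1 and 22.7% in Orm2, so values of these pairs are uncertain where the counting could split or drop shared reads. The shares were 6.9% in Serpina3n, 3.57% in Saa3 and 0.185% in Itih4, and 0 in Hp and Lcn2.

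Promoter sequences from RefSeq (GRCm38.p6, 250 bases upstream of the annotated start) were matched for 7 of the 9 genes, all but Hp and Orm1. Among those shown, the RefSeq starts of Saa3, Serpina3n and Lcn2 differ from the gene coordinates given above. The Lcn2 stretch lies wholly inside those coordinates, so its positions hold for the RefSeq start only. They are shown for those of the 7 that the edgeR test described below called in any comparison fitted on all libraries of its own groups. Letters are in lower case, 5′ to 3′ on the gene's strand, with motif matches on either strand in capitals. The motifs searched were TTGCNNAA (C/EBP-like), GGNNTTTCC (kappaB-like), TTCNNNGAA (STAT-like) and TATAAA, which occur in 9.56%, 4.93%, 7.02% and 12.4% of 32851 promoters of this length. In Saa3 (chr7:46715677-46715926, minus strand) the capitals mark a kappaB-like match 187 to 179 bases and a C/EBP-like match 99 to 92 bases before the start, both on the opposite strand.
Saa3: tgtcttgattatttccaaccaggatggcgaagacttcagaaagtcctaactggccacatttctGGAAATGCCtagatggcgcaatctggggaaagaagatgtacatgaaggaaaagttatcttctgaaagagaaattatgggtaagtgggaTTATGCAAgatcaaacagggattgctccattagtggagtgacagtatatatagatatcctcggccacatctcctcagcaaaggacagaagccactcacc
In Serpina3n (chr12:104406458-104406707, plus strand) the capitals mark a kappaB-like match 170 to 162 bases before the start.
Serpina3n: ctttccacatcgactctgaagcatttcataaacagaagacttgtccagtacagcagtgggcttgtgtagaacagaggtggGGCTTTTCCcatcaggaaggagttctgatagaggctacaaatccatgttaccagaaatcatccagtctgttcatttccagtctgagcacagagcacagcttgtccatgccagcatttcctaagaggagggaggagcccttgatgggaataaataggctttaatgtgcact
In Lcn2 (chr2:32387740-32387989, minus strand) they mark a C/EBP-like match 216 to 209 bases before the start.
Lcn2: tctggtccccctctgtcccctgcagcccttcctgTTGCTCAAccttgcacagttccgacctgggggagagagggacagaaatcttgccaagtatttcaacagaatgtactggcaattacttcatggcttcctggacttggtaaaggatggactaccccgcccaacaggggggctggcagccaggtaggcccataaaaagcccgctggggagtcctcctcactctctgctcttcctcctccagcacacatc
In Orm2 (chr4:63362199-63362448, plus strand) they mark a C/EBP-like match that reads on both strands, 120 to 113 bases before the start, and TATAAA at 33 to 28 bases.
Orm2: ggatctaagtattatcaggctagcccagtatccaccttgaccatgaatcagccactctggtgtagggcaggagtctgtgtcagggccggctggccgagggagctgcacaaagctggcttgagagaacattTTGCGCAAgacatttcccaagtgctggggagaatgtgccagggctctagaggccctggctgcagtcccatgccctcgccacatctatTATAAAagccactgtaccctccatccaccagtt
Saa1 and Saa2 each held 1 C/EBP-like match (TTGCACAA in both), and Itih4 held 1 STAT-like match (TTCCGAGAA). In all, 5 of the 7 promoters held the C/EBP-like letters, 2 the kappaB-like, 1 the STAT-like and 1 TATAAA. A match is a description of the letters, and binding was not measured.

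Set in order of level per length, Hp stood first in each of the 6 groups. Its group mean was 2763 normalised RPKM (normalised CPM per kilobase of exon) in high-fat SAT and 832 in low-fat SAT, 2525 in Azin2-/- SAT and 1453 in wild-type SAT, and 3379 in Azin2-/- GAT and 1450 in wild-type GAT. Haptoglobin binds free haemoglobin, and its transcript was the most abundant of the 9 in every group. Serpina3n, which encodes an inhibitor of serine proteases, and Orm1, which encodes the lipid-binding carrier alpha-1-acid glycoprotein, followed at group means of 127 to 297 and 135 to 264 RPKM. Saa3, an apolipoprotein of the acute phase, had means of 0.595 RPKM in low-fat SAT to 33.7 RPKM in Azin2-/- GAT, the widest span of group means among the 4 most abundant genes when taken as the ratio of highest to lowest. Orm2 had means of 0.547 to 6.67 RPKM, Itih4, an inter-alpha-trypsin inhibitor heavy chain, 0.257 to 2.94, and Lcn2, a lipocalin that binds iron-carrying siderophores, 0.507 to 4.45 outside low-fat SAT. Low-fat SAT had an Lcn2 mean of 205 RPKM, which was 0.493 without low-fat replicate 1. Saa1 and Saa2 were close to the limit of detection, with at most 44 and 43 counts in any library.

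**Figure D1:**
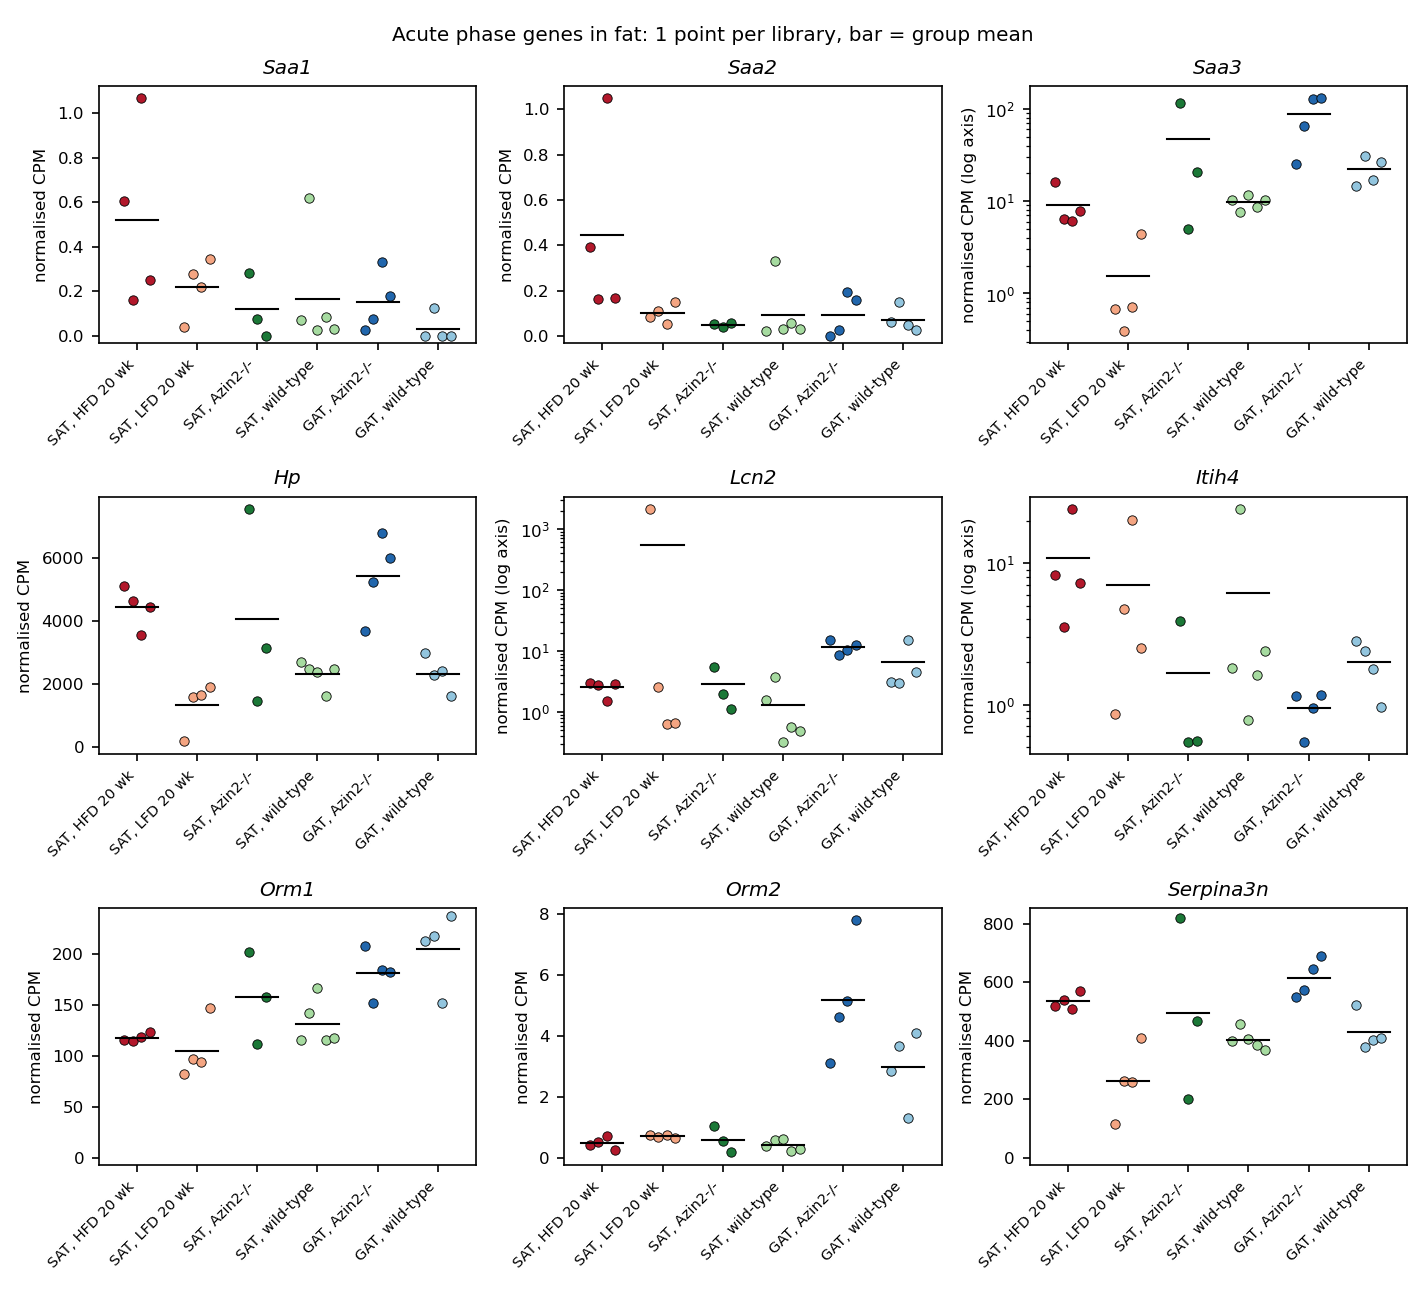
Normalised CPM of each of the 9 genes in each of the 24 libraries, 1 point per library, in 6 groups along the horizontal axis, with a bar at the group mean; the vertical axes of Saa3, Lcn2 and Itih4 are logarithmic. Hp and Serpina3n lay higher in Azin2-/- GAT than in wild-type GAT without overlap, Orm2 lay at 1.31 to 7.81 in GAT and at 1.05 or less in SAT, and 1 low-fat SAT library held 2143 normalised CPM of Lcn2.

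The first comparison asked what 20 weeks of the high-fat diet change in SAT. With all 8 libraries, 0 of 8 tested members passed edgeR's quasi-likelihood test (adjusted p under 0.05 by Benjamini and Hochberg over every gene tested), against 21.2% of all 17066 genes tested. Saa2 was not tested for its low counts. At an unadjusted p under 0.05 were Serpina3n, Hp, Saa3 and Lcn2, as were 6349 of all 17066 genes tested. The DESeq2 Wald test called Serpina3n, Hp and Saa2, 3 of 9 members, each higher. Of the 19226 genes to which it gave an adjusted p, 27.2% were called in either direction and 14.1% higher. Without the muscle-bearing high-fat replicate 6 or low-fat replicate 5, 0 members were called in edgeR. Of the 8, 6 had a positive log2 fold change, with a median of 0.81, against -0.09 over all genes tested.

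Hp stood at 5125, 4638, 3543 and 4444 normalised CPM in high-fat replicates 3, 4, 5 and 6. In low-fat replicates 1, 3, 5 and 6 it stood at 187, 1582, 1656 and 1919. Every high-fat library was above every low-fat one, and low-fat replicate 1 lay far below the other 3. How many of all genes separate in this way was not counted, here or below, so a lack of overlap only describes the values. The log2 fold change was 1.72 (SE 0.59, edgeR adjusted p = 0.0744). Without low-fat replicate 1, the library with epididymis transcripts, the log2 fold change was 1.37 (SE 0.139, edgeR adjusted p = 0.000144), and Hp was called higher.

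Serpina3n followed the same order. High-fat replicates 3, 4, 5 and 6 held 518, 538, 510 and 571 normalised CPM, and low-fat replicates 1, 3, 5 and 6 held 116, 263, 259 and 409. The groups did not overlap. Its log2 fold change was 1.01 (SE 0.308, adjusted p = 0.0542 in edgeR), 0.78 without low-fat replicate 1 (SE 0.168, edgeR adjusted p = 0.00644) and 1.31 without low-fat replicate 6 (SE 0.269, edgeR adjusted p = 0.0222), so that either omission brought a call. Replicate 6 was the top library of the low-fat group, so its removal alone raised the difference, while that of replicate 1 lowered it. Without low-fat replicate 1, 2 of 8 members were called, both higher. Over all 17268 genes tested in that fit, 8109 were called in either direction and 23.5% higher.

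Saa3 held 16.1, 6.35, 6.17 and 7.83 normalised CPM in high-fat replicates 3, 4, 5 and 6, against 0.685, 0.388, 0.71 and 4.42 in low-fat replicates 1, 3, 5 and 6. Again no low-fat library reached a high-fat one, and low-fat replicate 6 stood apart from its group. The log2 fold change was 2.52 (SE 0.812, edgeR adjusted p = 0.0628), 2.29 without low-fat replicate 1 (edgeR adjusted p = 0.101) and 3.87 without low-fat replicate 6 (SE 0.501, edgeR adjusted p = 0.00476). Saa3, Serpina3n and Orm1 were the 3 of 7 tested members called without low-fat replicate 6, all higher, Orm1 at a log2 fold change of 0.33 (edgeR adjusted p = 0.0331). For these 3 genes replicate 6 was the top library of its group, at 4.42, 409 and 147 normalised CPM. Its removal alone therefore raised each difference. The fit without it also kept replicate 1, whose label as SAT is doubtful. Over all 17317 genes tested in that fit, 2929 were called in either direction and 9.52% higher.

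The 2 orosomucoid genes of the list did not pass in the fit of all 8 libraries. Orm1 had a log2 fold change of 0.13 (SE 0.162), with 114 to 123 normalised CPM in high-fat SAT and 82 to 147 in low-fat SAT, and Orm2 one of -0.62 (SE 0.319), with 0.252 to 0.732 and 0.645 to 0.765 normalised CPM. Their edgeR adjusted p was 0.597 and 0.196. Saa1 had a log2 fold change of 1.23 (SE 0.715, edgeR adjusted p = 0.246) and rested on 6 to 44 counts in high-fat libraries and 2 to 14 in low-fat ones. Saa2 had 6 to 43 counts in high-fat SAT and 2 to 6 in low-fat SAT.

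Lcn2 depended on 1 library. High-fat replicates 3, 4, 5 and 6 held 3.02, 2.74, 1.54 and 2.88 normalised CPM, while low-fat replicates 1, 3, 5 and 6 held 2143, 2.58, 0.628 and 0.67. The log2 fold change was -7.90 (SE 2.96, edgeR adjusted p = 0.0951) with low-fat replicate 1 and 0.98 without it (SE 0.541, edgeR adjusted p = 0.177). In that library Lcn8, an epididymal lipocalin, stood at 4649 normalised CPM, against at most 0.122 in the other SAT libraries. Wild-type GAT replicate 3, with the next highest epididymis sum, held 15.4 normalised CPM of Lcn2, against 3.01 to 4.56 in the other wild-type GAT libraries. The part of epididymal RNA in these Lcn2 values was not tested.

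**Figure D2:**
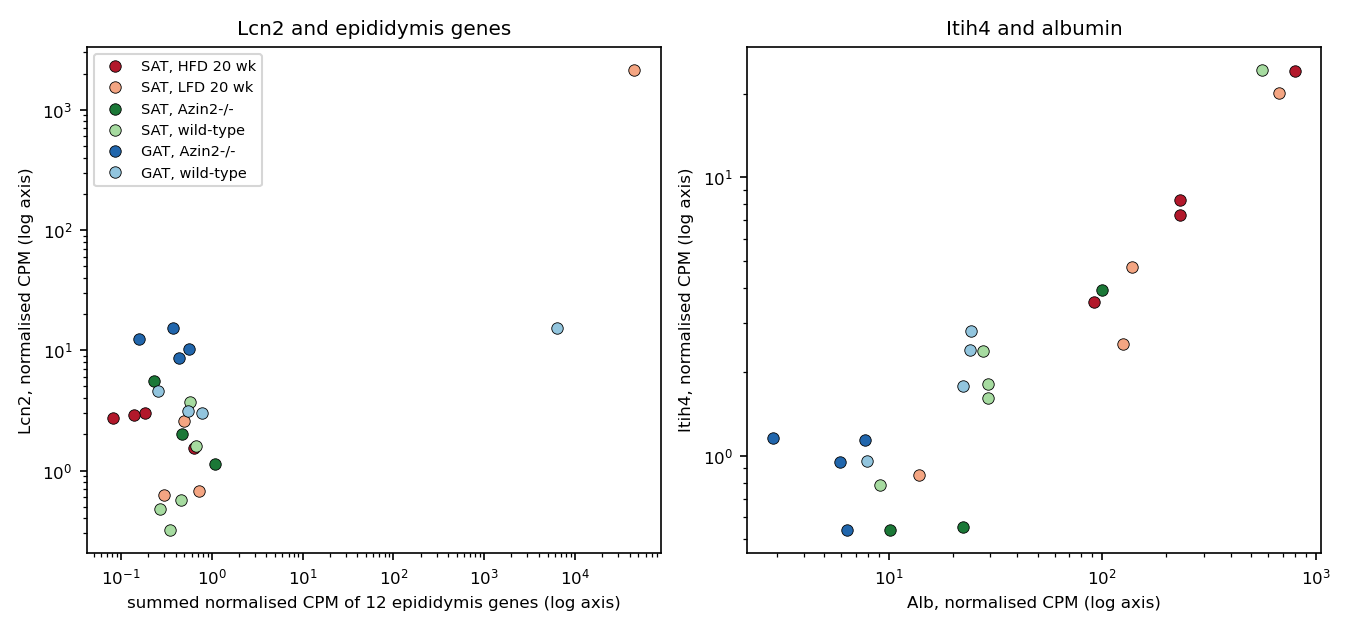
Left, Lcn2 (vertical, normalised CPM, log axis) against the summed level of 12 epididymis genes (horizontal, normalised CPM, log axis); right, Itih4 (vertical) against albumin, Alb (horizontal), both in normalised CPM on log axes, 1 point per library coloured by group. The library labelled low-fat SAT replicate 1 stands alone at the top right of the left panel, and the 3 libraries with over 20 normalised CPM of Itih4 are the 3 with the most Alb.

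Itih4 had a log2 fold change of 0.62 with diet (SE 0.948, edgeR adjusted p = 0.659). High-fat replicates 3, 4, 5 and 6 held 8.26, 3.56, 24.2 and 7.3 normalised CPM, and low-fat replicates 1, 3, 5 and 6 held 0.852, 4.77, 20.1 and 2.51. The spread within each group exceeded the difference between them. Its 3 highest libraries were wild-type SAT replicate 2 (24.3 normalised CPM), high-fat replicate 5 and low-fat replicate 5, and the same 3 held the most Alb, at 562, 800 and 671 normalised CPM, against at most 231 in the other libraries. Alb encodes serum albumin, which is made in the liver. Saa1 and Saa2 were likewise highest in high-fat replicate 5 (44 and 43 counts), with wild-type SAT replicate 2 second for Saa1 (30 counts) and rank 3 for Saa2 (16 counts). The hepatocyte list of 14 genes summed to 221 to 1527 normalised CPM in high-fat SAT and 809 to 1943 in low-fat SAT, of which Cyp2e1, also expressed in fat, held 60.8 to 185 and 626 to 851. The part of hepatic RNA in the values of Itih4, Saa1 and Saa2 was not tested.

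Genes that surround the acute phase response were examined from lists. Their counts with diet stand beside 21.2% of all 17066 genes called in either direction, with 1851 genes called higher. Without low-fat replicate 1, 8109 of all 17268 genes were called, so a rise in calls in that fit is shared by genes at large. Of 8 tested genes in the list of inducing cytokines, which also holds the antagonist gene Il1rn, 3 were called higher with diet and 1 lower. Il1rn, which encodes the interleukin 1 receptor antagonist, was at 21.4 ± 3.83 normalised CPM in high-fat SAT and 0.416 ± 0.341 in low-fat SAT (SD, n = 4 each), and rose by 5.65 on the log2 scale (edgeR adjusted p = 0.0015). Tnf rose by 1.16 (edgeR adjusted p = 0.0424) and Lif, an interleukin 6 type cytokine, by 0.88 (edgeR adjusted p = 0.0249), while Ctf1, another of that type, fell by 2.14 (edgeR adjusted p = 0.00315). Il6 was at most 0.131 normalised CPM in any SAT library of the diet experiment and Il1b at most 0.852, and Il1b had a log2 fold change of 0.34 (edgeR adjusted p = 0.695). Osm, oncostatin M, had 1.07 (edgeR adjusted p = 0.0878). Without low-fat replicate 1, 5 of the 8 cytokine genes were called higher and 1 lower, and Il1b was among those called.

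Of 12 cytokine receptor genes 2 were called higher, Tnfrsf1b and Il1r1, and of 15 signalling genes 2 were called higher, Jak1 and Jak2. Over all genes tested, 21.2% were called in either direction. Tnfrsf1b, a receptor of tumour necrosis factor, rose by 1.17 on the log2 scale (edgeR adjusted p = 0.00202). The transcription factor genes Stat3 (log2 fold change 0.18), Cebpb (0.01) and Cebpd (-0.06) and the feedback inhibitor Socs3 (0.67) did not pass, at edgeR adjusted p of 0.121, 0.972, 0.708 and 0.124. Without low-fat replicate 1, Stat3 (0.15, edgeR adjusted p = 0.0388) and Socs3 (0.45, edgeR adjusted p = 0.0172) were called higher.

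Among 20 tested receptors and partners of the members, 3 were called higher and 1 lower, a share close to the 21.2% of all genes called with diet. Tlr2, at which serum amyloid A acts, rose by 1.16 on the log2 scale (edgeR adjusted p = 0.000813). Hmox1, the haem oxygenase that breaks down the haem cleared with haptoglobin, rose by 2.13 (edgeR adjusted p = 0.00298), and Cma1, a mast cell chymase, by 1.38 (edgeR adjusted p = 0.017). Cd163, the macrophage receptor of haptoglobin with haemoglobin, had a log2 fold change of 0.59 (edgeR adjusted p = 0.193), and Slc22a17, described as a receptor of Lcn2, fell by 0.92 (edgeR adjusted p = 0.00935). Without low-fat replicate 1, Cd163 was called higher.

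Of 32 tested genes of other acute phase plasma proteins, 3 were called higher and 2 lower, a share below the 21.2% of all genes called with diet. Lbp, which encodes the lipopolysaccharide binding protein, rose by 1.59 on the log2 scale (edgeR adjusted p = 0.0121), and the serpins Serpina3m (1.47, edgeR adjusted p = 0.00606) and Serpina3f (1.64, edgeR adjusted p = 0.0248) also rose. Cp, ceruloplasmin, fell by 1.42 (edgeR adjusted p = 0.000659), and Orm3, a further orosomucoid gene, fell by 3.96 (edgeR adjusted p = 0.00249). Orm3 held 0.136 to 0.61 normalised CPM in high-fat SAT and 3.38 to 6.05 in low-fat SAT. C3, complement component 3, had 0.01 (edgeR adjusted p = 0.99) and Saa4 0.84 (edgeR adjusted p = 0.582). Serpina3m and Serpina3f share 19.1% and 10.6% of their 50-base stretches with other genes, chiefly within their own cluster.

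Markers of several cell types moved with the diet. Of 12 macrophage genes 10 were called higher, and their summed level was 1686 to 2063 normalised CPM in high-fat SAT, against 382 to 696 in low-fat SAT. Of 5 tested neutrophil genes, 2 were called higher, S100a8 and Csf3r, but Ly6g and Camp were at 0 in all 4 high-fat libraries and Ngp at no more than 0.0559 normalised CPM. The 12 listed neutrophil genes summed to 11.4 to 17.4 normalised CPM in high-fat SAT and 5.3 to 7.02 in low-fat SAT. Of 10 adipose progenitor genes 4 were called higher, and 8 without low-fat replicate 1, with sums of 2969 to 3068 in high-fat SAT, against 931 to 2148 in low-fat SAT. Of 10 adipocyte genes 2 were called lower, Cfd and Retn, and without low-fat replicate 1, 6 were called lower and 2 higher. The fit without low-fat replicate 1 called 8109 of all 17268 genes tested, against 3622 of 17066 with all 8 libraries. The adipocyte sums were 24882 to 26097 in high-fat SAT and 9033 in low-fat replicate 1, with 34087 to 37395 in the other low-fat libraries. In whole tissue, more cells of a type and more RNA per cell cannot be told apart, and the part of these cell types in the levels of Hp, Serpina3n and Saa3 was not tested.

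The second comparison asked how loss of Azin2 affects SAT after 8 weeks of the high-fat diet. In edgeR 0 of 7 tested members passed, against 0.0059% of 16948 genes, which is 1 gene. Saa1 and Saa2 were not tested. The count at an unadjusted p under 0.05 over all genes was 1745, with Saa3 alone among the members, and the DESeq2 Wald test called 304 genes and 0 members. The Azin2-/- libraries spanned a wide range. Hp was at 7574, 1458 and 3135 normalised CPM in Azin2-/- replicates 1, 2 and 3, against 1624 to 2691 with a median of 2478 in 5 wild-type libraries. Saa3 was at 115, 4.99 and 20.5 normalised CPM in Azin2-/- replicates 1, 2 and 3, against 10.3, 7.7, 11.6, 8.67 and 10.4 in wild-type replicates 1 to 5. Serpina3n was at 818, 200 and 468 normalised CPM in Azin2-/- SAT and 369 to 456 in wild-type SAT. In all 3 genes replicate 1 was above and replicate 2, the library rich in muscle transcripts, below every wild-type library.

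The log2 fold changes in SAT were 2.27 for Saa3 (SE 0.825, edgeR adjusted p = 0.437), 0.79 for Hp (SE 0.441), 0.29 for Serpina3n (SE 0.359) and 1.11 for Lcn2 (SE 0.839). Orm1 had 0.25 (SE 0.202), Orm2 0.48 (SE 0.529) and Itih4 -1.87 (SE 1.41). The sign of Hp, Serpina3n and Orm2 rested on Azin2-/- replicate 1, without which they were -0.04, -0.28 and -0.25. That of Itih4 rested on wild-type replicate 2, the library with the most Alb in its group, without which it was 0.04. Without both muscle-rich libraries, Saa3 had 2.88 (edgeR adjusted p = 0.194) and Hp 1.21 (edgeR adjusted p = 0.229). The summed macrophage level was 1343, 794 and 693 normalised CPM in Azin2-/- replicates 1, 2 and 3 and 742 to 1212 in wild-type SAT.

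The third comparison asked the same of GAT, and here 2 of 7 tested members were called, both higher in Azin2-/-. Over all 16778 genes tested, 6.77% were called in either direction and 5.45% higher. The median log2 fold change of the 7 was 0.78, against -0.03 over all genes, and 5 of the 7 were positive. Hp stood at 3683, 5234, 6792 and 5997 normalised CPM in Azin2-/- replicates 1 to 4, against 2996, 2273, 2417 and 1631 in wild-type replicates 1 to 4. The groups did not overlap. Hp rose by 1.20 on the log2 scale (SE 0.235, edgeR adjusted p = 0.0408), which is 2.29-fold.

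Serpina3n stood at 550, 572, 644 and 688 normalised CPM in Azin2-/- replicates 1 to 4, against 521, 380, 404 and 411 in wild-type replicates 1 to 4. Here too every Azin2-/- library lay above every wild-type one, by a narrow gap. Serpina3n rose by 0.50 on the log2 scale (SE 0.120, edgeR adjusted p = 0.0472), which is 1.41-fold. Both calls were near the threshold and were lost in edgeR without Azin2-/- replicate 2 (adjusted p = 0.142 for Hp and for Serpina3n), 3 (0.129 and 0.14) or 4 (0.128 and 0.148), and without wild-type replicate 2 (0.09 and 0.117) or 4 (0.118 and 0.132). Nearly all genes lost their call in these fits. Over all genes tested, 1 was called without Azin2-/- replicate 2 and 0 in each other of these fits, against 1136 with all 8 libraries. Serpina3n was also lost without wild-type replicate 3 (edgeR adjusted p = 0.0559). Over the omission of each of the 8 libraries in turn the log2 fold change ranged from 1.06 to 1.34 for Hp and from 0.43 to 0.60 for Serpina3n.

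Saa3 came close to the threshold. It stood at 25.5, 64.9, 129 and 132 normalised CPM in Azin2-/- replicates 1 to 4, against 14.6, 30.7, 17 and 26.6 in wild-type replicates 1 to 4. Azin2-/- replicate 1 lay within the wild-type range and the other 3 above it. The log2 fold change was 1.96 (SE 0.495, edgeR adjusted p = 0.0519), and without Azin2-/- replicate 1 it was 2.27 (SE 0.341, edgeR adjusted p = 0.00621). That library held the lowest Azin2-/- value, so leaving it out widened the gap by itself. The fit without it called 2672 of all 17053 genes tested, against 1136 of 16778 with all 8 libraries.

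Lcn2 in Azin2-/- GAT was at 15.4, 8.61, 10.3 and 12.5 normalised CPM in replicates 1 to 4, against 3.15, 3.01, 15.4 and 4.56 in wild-type replicates 1 to 4. The single wild-type value in the Azin2-/- range is that of replicate 3, the library with epididymis transcripts. The log2 fold change of Lcn2 was 0.81 (SE 0.536, edgeR adjusted p = 0.345), and 1.71 without wild-type replicate 3 (SE 0.243, edgeR adjusted p = 0.048). Leaving that library out removed the highest wild-type value and so widened the gap by itself. Ltf, which encodes lactoferrin and stands in the neutrophil list, was at 21.3 normalised CPM in wild-type replicate 3 as well, against 0.0563 to 0.253 in the other wild-type GAT libraries.

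Orm1 had a log2 fold change of -0.19 (SE 0.145, edgeR adjusted p = 0.413), with 152 to 208 normalised CPM in Azin2-/- GAT and 152 to 237 in wild-type GAT. Orm2 had 0.78 (SE 0.379, edgeR adjusted p = 0.213), with 3.1 to 7.81 and 1.31 to 4.11 normalised CPM. Itih4 had -1.08 (SE 0.377, edgeR adjusted p = 0.109), with 0.539 to 1.16 normalised CPM in Azin2-/- GAT and 0.956 to 2.8 in wild-type GAT. Alb fell by 1.80 beside it (edgeR adjusted p = 0.0418), at 2.89 to 7.72 normalised CPM in Azin2-/- GAT and 7.93 to 24.3 in wild-type GAT. Saa1 and Saa2 had at most 12 and 7 counts in any GAT library and were not tested. Saa1 had 0 counts in 3 of 4 wild-type GAT libraries, which allows up to 3 counts, or 0.0631 to 0.0844 normalised CPM, in each.

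Macrophage genes rose with genotype in GAT too, 9 of 12, with sums of 2041 to 4342 normalised CPM in Azin2-/- and 1100 to 1754 in wild-type GAT. S100a8 rose by 2.29 on the log2 scale (edgeR adjusted p = 0.0408), while Ngp, Camp and Ly6g were at 0 in Azin2-/- replicates 2, 3 and 4. Azin2-/- replicate 1 held 1.27 normalised CPM of Ngp, 0.557 of Camp and 0.0265 of Ly6g, against at most 0.0758, 0.0468 and 0 in wild-type GAT. The neutrophil list summed to 17.7 to 31 normalised CPM in Azin2-/- GAT, against 28.9 in wild-type replicate 3 and 8.19 to 8.74 in the other wild-type libraries. Of 10 adipose progenitor genes 3 were called higher, Col1a1, Fbn1 and Lum, with sums of 2706 to 3613 in Azin2-/- and 1896 to 2754 in wild-type GAT. Of 10 adipocyte genes 1 was called lower, Pnpla2, and 1 had a positive log2 fold change, with sums of 22275 to 24910 in Azin2-/- and 22198 to 33366 in wild-type GAT. Azin2-/- replicate 1 was the lowest of its group in the macrophage sum and in Hp, Serpina3n, Saa3 and Orm2, but the highest of its group in Lcn2 and Orm1. Il1rn rose by 2.57 (edgeR adjusted p = 0.0408) and Lif by 1.58 (edgeR adjusted p = 0.0426), the 2 called of 8 cytokine genes. Of the receptors, Tnfrsf1b rose by 1.07 (edgeR adjusted p = 0.0408) and Il1r2, a decoy receptor of interleukin 1, by 1.60 (edgeR adjusted p = 0.0465), out of 13 tested. Tlr2 (0.95, edgeR adjusted p = 0.0409) and Hmox1 (1.13, edgeR adjusted p = 0.0408) rose out of 20 partners. Of 27 other acute phase plasma proteins Lbp rose by 0.61 (edgeR adjusted p = 0.0408) and Alb fell, as given above. Over all genes tested in this comparison, 6.77% were called in either direction. The part of macrophages, neutrophils, progenitors and adipocytes in the Hp and Serpina3n differences was not tested.

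**Figure D3:**
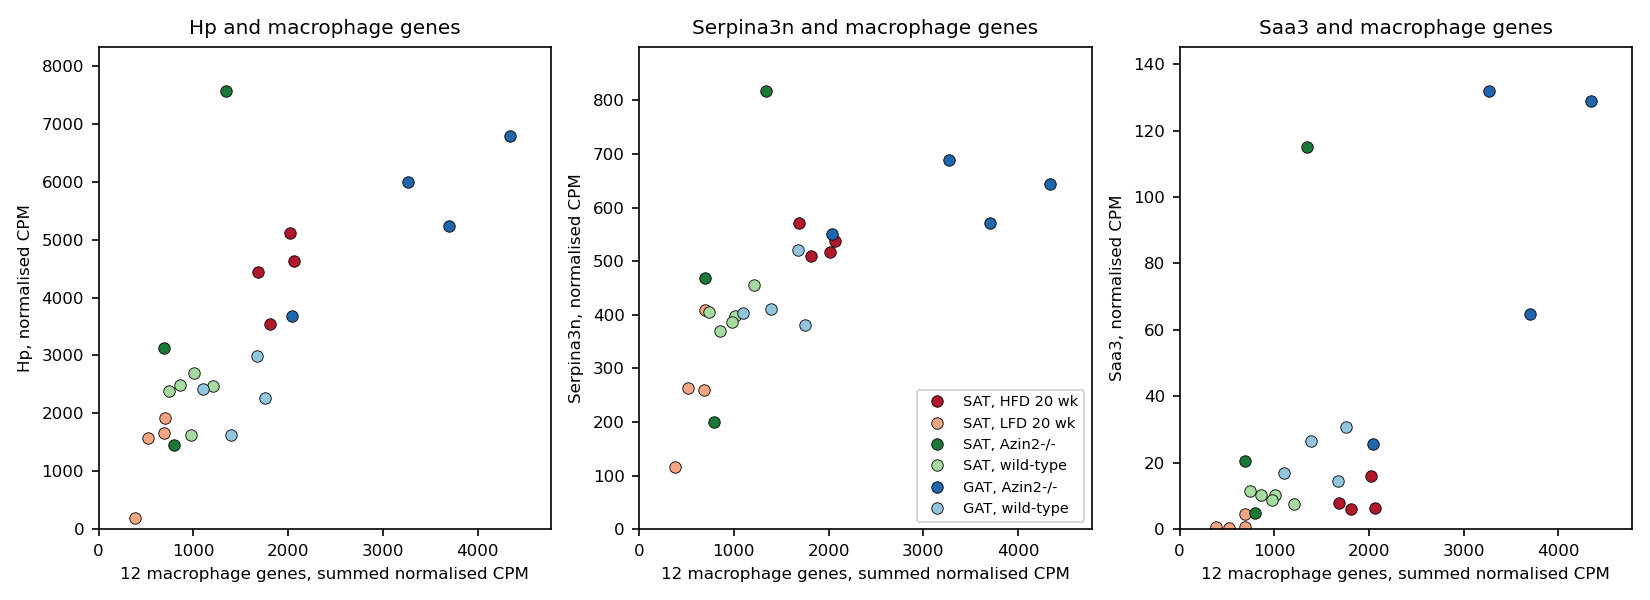
Hp, Serpina3n and Saa3 (vertical axes, normalised CPM) against the summed level of 12 macrophage genes (horizontal axes, normalised CPM), 1 point per library coloured by group. The 4 Azin2-/- GAT libraries held 2041 to 4342 normalised CPM of the macrophage genes; Azin2-/- SAT replicate 1 stood high in all 3 genes at a macrophage sum of 1343.

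Depots were compared within each genotype. Saa1 and Saa2 were not tested in either genotype for their low counts. The labels do not state whether SAT and GAT libraries come from the same animals. In wild-type mice 3 of 7 tested members were called, each higher in GAT, against 4.33% of 17030 genes called in either direction and 2.47% higher. Orm2 was at 2.86, 3.66, 1.31 and 4.11 normalised CPM in GAT replicates 1 to 4, against 0.226 to 0.608 with a median of 0.404 in 5 SAT libraries. No SAT library reached a GAT one. Orm2 rose by 2.80 on the log2 scale (SE 0.395, edgeR adjusted p = 0.00636), which is 6.98-fold, and its call held without each library in turn.

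Saa3 in wild-type GAT, at 14.6, 30.7, 17 and 26.6 normalised CPM, lay above the 7.7 to 11.6 of wild-type SAT, and rose by 1.20 (SE 0.222, edgeR adjusted p = 0.0181). Its call was lost without GAT replicate 2 (edgeR adjusted p = 0.0547) or 4 (0.0538). Orm1 rose by 0.65 (SE 0.151, edgeR adjusted p = 0.0446), with 212, 217, 152 and 237 normalised CPM in GAT replicates 1 to 4 and 115 to 166 in SAT. Its call was lost in edgeR without GAT replicate 1 (adjusted p = 0.0864), 2 (0.115) or 4 (0.0989) and without SAT replicate 1 (0.112), 2 (0.0615), 4 (0.0872) or 5 (0.0967). A fit chosen after seeing the data left out both the muscle-rich SAT replicate 3 and the epididymis-bearing GAT replicate 3, and Orm1 was called there (edgeR adjusted p = 0.00287). These libraries held the highest SAT value (166) and the lowest GAT value (152) of Orm1, so leaving them out widened the gap by itself. Orm3, beside Orm1 and Orm2 in the orosomucoid family, rose by 2.40 (edgeR adjusted p = 0.00409), and C3 by 1.68 (edgeR adjusted p = 0.0152), the 2 called of 27 other acute phase genes.

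Hp and Serpina3n, the most abundant members, had log2 fold changes of 0.01 (SE 0.194, edgeR adjusted p = 0.986) and 0.10 (SE 0.109, edgeR adjusted p = 0.615) between the wild-type depots. Lcn2 had 2.30 (SE 0.816, edgeR adjusted p = 0.151) and Itih4 -1.63 (SE 1.03, edgeR adjusted p = 0.382). Mesothelial genes, which mark the lining of the abdominal fat, moved with depot. Summed over 7 of them, GAT held 71.2 to 603 normalised CPM in wild-type, against 2.8 to 5.15 in wild-type SAT. Their part in the depot differences of Orm2 and Saa3 was not tested. The library labelled low-fat SAT replicate 1 also held mesothelial transcripts, at 174 normalised CPM, with 0.748 normalised CPM of Orm2, against 0.645 to 0.765 in the other low-fat libraries. It is 1 library of doubtful tissue with epididymis transcripts, so its values are no measure of the mesothelial part in GAT.

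In Azin2-/- mice 2 of 7 members were called, both higher in GAT, against 15.2% of 16800 genes called in either direction and 9.13% higher. Orm2 was at 3.1, 4.62, 5.14 and 7.81 normalised CPM in GAT replicates 1 to 4, against 1.05, 0.542 and 0.194 in SAT replicates 1 to 3, and rose by 3.09 (SE 0.574, edgeR adjusted p = 0.0212). Lcn2 was at 15.4, 8.61, 10.3 and 12.5 in GAT, against 5.57, 2.01 and 1.14 in SAT, and rose by 1.99 (SE 0.53, edgeR adjusted p = 0.0457). Neither gene overlapped between the depots. Both calls were lost in edgeR without GAT replicate 2 (adjusted p = 0.0692 for Orm2 and 0.0957 for Lcn2), 3 (0.0589 and 0.0962) or 4 (0.0623 and 0.107) or without SAT replicate 3 (0.075 and 0.0901), and Lcn2 also without GAT replicate 1 (0.0712) or SAT replicate 2 (0.087). Over all genes, 36, 278 and 218 were called without GAT replicates 2, 3 and 4 and 40 without SAT replicate 3, against 2549 with all libraries. Of 12 macrophage genes 10 were called higher in GAT here, and 1 in wild-type mice. The mesothelial sum was 37 to 159 normalised CPM in Azin2-/- GAT, against 2.21 to 3.06 in Azin2-/- SAT.

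The members in Azin2-/- that were not called between depots were Hp (log2 fold change 0.41, SE 0.513), Saa3 (0.89, SE 1.03), Serpina3n (0.30, SE 0.406), Orm1 (0.20, SE 0.205) and Itih4 (-0.84, SE 0.723). Whether the genotype difference itself differed between GAT and SAT was tested as an interaction. In edgeR 0 of 8 tested members and 0 of 18033 genes (percent called 0) passed, with 2016 genes at an unadjusted p under 0.05, while the DESeq2 Wald test called 159 genes and 0 members. The interaction term was 0.42 for Hp (SE 0.534, edgeR adjusted p = 0.793) and 0.21 for Serpina3n (SE 0.40, edgeR adjusted p = 0.863), so the calls in GAT are not shown to differ from SAT. It was -0.30 for Saa3 (SE 0.996), -0.44 for Orm1 (SE 0.260), -0.29 for Lcn2 (SE 1.07), 0.30 for Orm2 (SE 0.691), 0.80 for Itih4 (SE 1.39) and 2.70 for Saa1 (SE 1.83), and Saa2 was not tested.

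**Figure D4:**
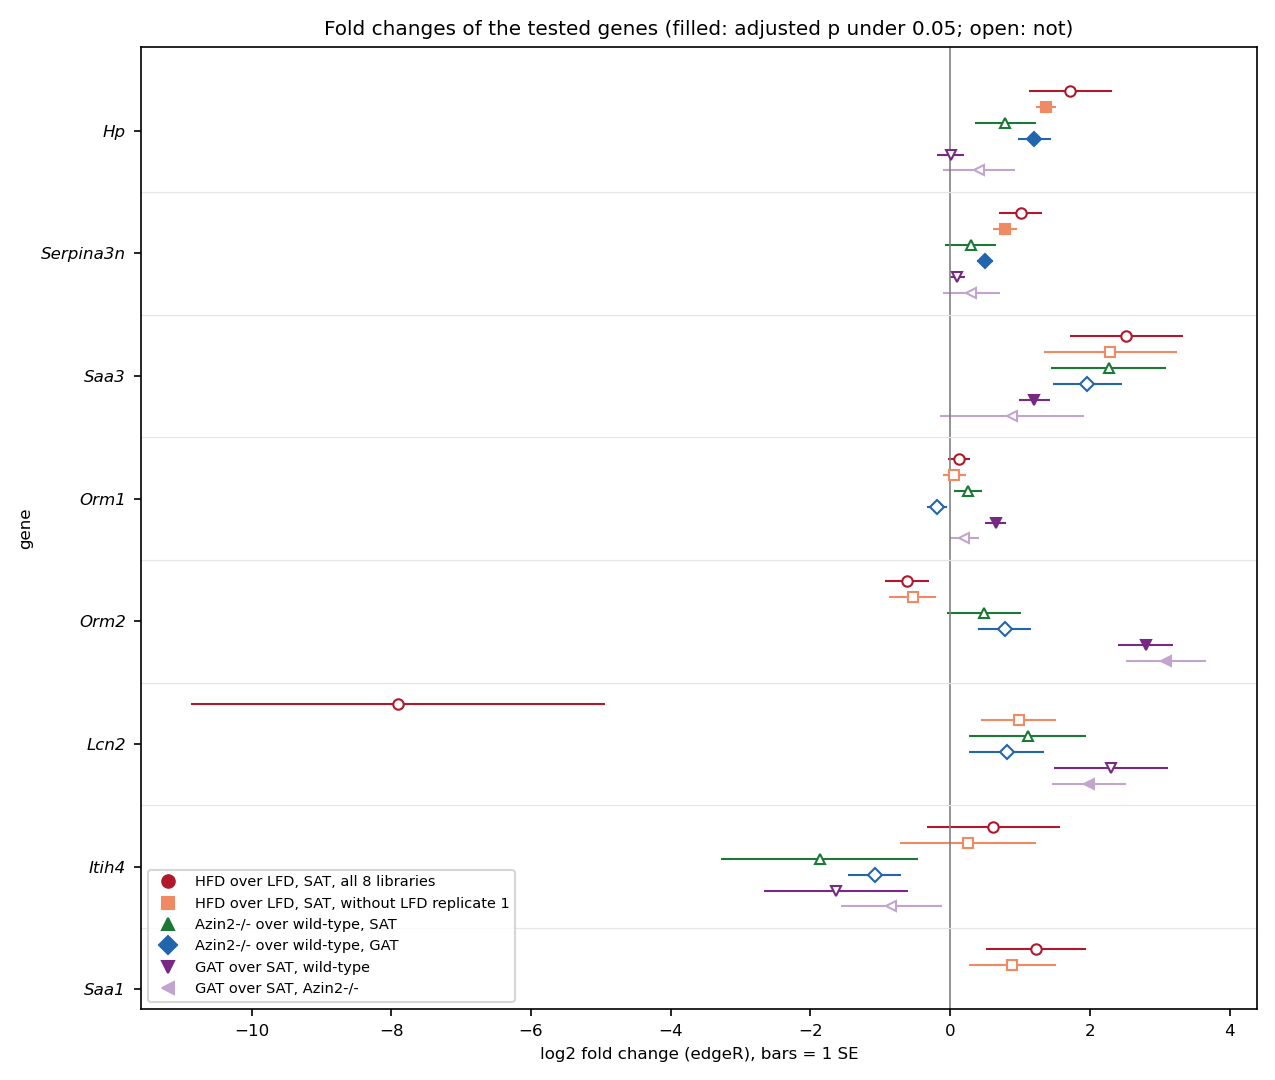
Log2 fold changes of the tested members (rows) in 6 edgeR fits, with bars of 1 SE; filled symbols passed at an adjusted p under 0.05. Hp and Serpina3n are filled in GAT by genotype and in SAT by diet without low-fat replicate 1, Orm2 in both depot comparisons, and Lcn2 by diet with all 8 libraries has the widest bar, at -7.90 with an SE of 2.96.

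The order of the 6 groups differed between members. For Hp it was Azin2-/- GAT (5426 ± 1325 normalised CPM), high-fat SAT (4438 ± 662), Azin2-/- SAT (4055 ± 3160), wild-type SAT (2334 ± 412), wild-type GAT (2329 ± 561) and low-fat SAT (1336 ± 779; SD, n of 3 to 5), with each neighbour overlapping the next. Serpina3n followed with Azin2-/- GAT (613 ± 63.8), high-fat SAT (534 ± 27.4), Azin2-/- SAT (496 ± 310), wild-type GAT (429 ± 62.6), wild-type SAT (403 ± 32.8) and low-fat SAT (261 ± 119), again with overlap at every step. For Saa3 the order was Azin2-/- GAT (87.9 ± 51.9), Azin2-/- SAT (47 ± 59.8), wild-type GAT (22.2 ± 7.65), wild-type SAT (9.72 ± 1.53), high-fat SAT (9.1 ± 4.7) and low-fat SAT (1.55 ± 1.92). The steps between wild-type GAT and wild-type SAT and between high-fat and low-fat SAT were without overlap. Low-fat SAT thus stood last in all 3, and the diet and genotype experiments differ in weeks of feeding, so levels across them are set side by side without a test. Orm2 had its 1 gap between wild-type GAT (2.99 ± 1.23) and low-fat SAT (0.713 ± 0.0544), and Orm1 had none, from wild-type GAT (205 ± 36.6) down to low-fat SAT (105 ± 28.7).

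Genes whose profile over the 24 libraries lay nearest to that of a member were found by the root mean square (RMS) difference of centred log2 CPM, among 12445 protein-coding genes, for members with at least 5 CPM on average. Nearest to Hp was Lrg1, which encodes leucine-rich alpha-2-glycoprotein, itself an acute phase protein (RMS difference 0.37, beside an RMS of Hp around its own mean of 1.06), then Pcolce2 (0.42) and Mrc2 (0.43). Nearest to Serpina3n were Ppic (0.17), P3h1 (0.21) and Cers4 (0.24), against its own RMS of 0.59. Nearest to Itih4 were Hpd (0.40), Serpinc1 (0.49) and Serpina1d (0.55), which are liver genes, against its own RMS of 1.38.

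Saa3, with an RMS of 1.91, had Ear2 (0.99), Sfrp4 (1.08) and Atf3 (1.10) nearest, and Orm1, with an RMS of 0.41, had Psat1 (0.19), Pkp2 (0.22) and Cd320 (0.23). Lcn2 reached the 5 CPM on average only with low-fat replicate 1 (105 CPM over 24 libraries and 4.54 over the other 23), so its neighbours are not given.

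The neighbours were found again over the 23 libraries without low-fat replicate 1. Those of Hp were then Il20rb (0.18), Cstb (0.29) and Irf8 (0.31), against its own RMS of 0.71, and none was among the 3 found over 24 libraries. Serpina3n shared 1 of its 3 neighbours between both sets of libraries, Ppic, and Saa3, Orm1 and Itih4 shared 2 each. These distances describe the libraries, which share diets, depots and genotypes, and carry no test.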

How the data were processed

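RNA of whole SAT or GAT was counted in 24 libraries. The authors deposited 1 table of raw counts for each library, with a row per Ensembl gene. The submitters' processing notes name HTSeq 0.6.1p1, STAR and cutadapt, and the build GRCm38 (mm10). Read assignment, strand setting and annotation were not given in the sources used here. Symbols, coordinates and exon lengths came from GENCODE M21, which held 49326 of 49585 identifiers (the other 259 held 0.0103% of counts).

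The genes, lists and comparisons were chosen with earlier results of these data known. Tests used edgeR 4.0.16 under R 4.3.3 (filterByExpr with a minimum count of 10 and a minimum total of 15, TMM, quasi-likelihood test with robust fitting) within the groups compared, and over 4 groups for the interaction of depot and genotype. Called genes had an adjusted p (Benjamini-Hochberg, over all tested genes) under 0.05. Log2 fold changes are high-fat over low-fat, Azin2-/- over wild-type and GAT over SAT. The SE is the log2 fold change over the root of F. Normalised CPM uses TMM factors over all 24 libraries, and normalised RPKM divides it by the length of the union of exons.

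All 9 genes are named in every comparison. From each list, counts and up to 4 called genes of smallest p are given, and 13 fixed genes whatever their p with diet; other named genes describe a limit or a marker and were named after their values were seen. The numbers and animal marks in the titles are not stated to pair libraries, and did not pair them in every comparison. Alternatives were DESeq2 1.42.0 (size factors or Wald test), 1 fit of all 24 libraries, no low-count filter, a replicate block, and leaving out libraries. A count of 0 allows up to 3 counts (95% confidence, counting error only, since reads are not independent molecules).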

Additional observations from a re-analysis of the deposited data

Results flagged for a closer look

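In groups of 4 or 5 libraries, the highest or lowest library stood apart from the others, by Dixon's test at 95%, in 9 of the 45 combinations of gene and group tested; chance gives about 1 in 20. Lcn2 was highest in the library labelled low-fat SAT replicate 1 (2143 normalised CPM) and in wild-type GAT replicate 3 (15.4), which are the 2 libraries with epididymis transcripts. Itih4 (24.3), Saa1 (0.622) and Saa2 (0.332) were each highest in wild-type SAT replicate 2, the library of that group with the most Alb. Saa3 was highest in high-fat SAT replicate 3 (16.1) and in low-fat SAT replicate 6 (4.42). Hp was lowest in wild-type SAT replicate 4 (1624). Saa1 was highest in wild-type GAT replicate 2 (0.126), where it rests on 5 counts beside 0 in the other 3 libraries. These values are in normalised CPM, and their causes were not tested.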

How the results depend on the processing

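Of 676 log2 fold changes of members under an alternative, 581 kept their direction and their side of the threshold, 42 lost a call, 20 gained one and 33 changed sign. With diet, 0 members and 3622 genes were called; the DESeq2 Wald test called 3 members and all 24 libraries in 1 fit 4 members, and genes called were 2335 with no low-count filter and 6056 with all 24 libraries. Leaving out each library gave 0 to 3 members, 1802 to 8109 genes, and log2 fold changes of -8.31 to 0.98 for Lcn2 and -0.13 to 1.98 for Itih4. With genotype in SAT, 1 gene was called, against 304 by DESeq2 Wald, 13 with all 24 libraries and 8 without muscle-rich libraries. Leaving out each gave 0 to 4 genes, and -0.036 to 1.20 for Hp, -0.25 to 0.90 for Orm2, -0.28 to 0.68 for Serpina3n and -3.50 to 0.038 for Itih4. With genotype in GAT, 2 members and 1136 genes were called, against 4 and 3020 by DESeq2 Wald, 0 and 0 with no low-count filter and 0 and 1213 with all 24 libraries. Leaving out each gave 0 to 3 members and 0 to 2672 genes. Between wild-type depots, 3 members and 738 genes were called, against 1859 genes by DESeq2 Wald, 490 with no filter and 1136 without the libraries rich in muscle or epididymis transcripts (chosen after seeing the data), where Hp had -0.012. Leaving out each gave 1 to 3 members, 296 to 909 genes, and -0.13 to 0.15 for Hp, -0.00273 to 0.16 for Serpina3n and -1.91 to 0.28 for Itih4. Between Azin2-/- depots, 2 members and 2549 genes were called, against 4220 genes by DESeq2 Wald and 1 member with no filter, with all 24 libraries or without muscle-rich libraries, where Serpina3n had -0.073. Leaving out each gave 0 to 2 members, 36 to 3414 genes, and -0.073 to 0.88 for Serpina3n and -1.26 to 0.78 for Itih4. In the interaction of depot and genotype, DESeq2 Wald called 159 genes. Without muscle-rich libraries Serpina3n had -0.17, and without those and the epididymis-bearing one -0.19, with 0.65 for Lcn2 and -0.16 for Orm2. Leaving out each gave 0 to 107 genes, and -0.83 to 1.58 for Saa3, -1.16 to 0.60 for Lcn2, -0.12 to 1.02 for Orm2, -0.17 to 0.78 for Serpina3n and -1.12 to 2.42 for Itih4. The causes were not tested.

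The numbers or marks in the titles served as a replicate block, although the labels do not say what they share and libraries of the same mark did not deviate together in every comparison (correlations of -0.273 to 0.784). With the replicate block, 2 members and 5867 genes were called with diet (Lcn2 1.14), 0 genes with genotype in SAT (Saa3 -0.063, Hp -0.21, Orm1 -0.085, Orm2 -0.37, Serpina3n -0.35), 1716 genes in GAT, 0 members and 0 genes between wild-type depots, and 1099 genes between Azin2-/- depots (Itih4 0.40). The block gave 2.13 for the interaction of Saa3. Depth limits Saa1 and Saa2 most, with at most 44 and 43 counts in a library, and Saa2 did not pass the low-count filter in any comparison fitted on its own groups, although it was tested with all 24 libraries in 1 fit.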
